A study of Homo sapiens with 4 samples.

Results

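The cholesterol and fatty acid synthesis genes followed here are 32 genes that the sterol regulatory element-binding proteins (SREBPs) are known to drive or that control the SREBPs, taken by symbol from a table of 62710 genes. All 32 were found once each and stood above 0 in all 4 libraries. They comprise 6 enzymes of the mevalonate and prenyl steps, 11 enzymes from squalene to cholesterol, 6 regulators and sterol carriers, and 9 enzymes of fatty acid and lipid synthesis. Messenger RNA was captured on poly(A) beads from established human lines, HGC27, an undifferentiated gastric cancer taken from a lymph node, and MKN45, a gastric adenocarcinoma. Both were grown in medium with 10% fetal bovine serum. Each line was kept for 24 h in 0.3 µM periplocymarin, a cardiac glycoside that blocks the Na,K-ATPase, or in 0.1% DMSO as the vehicle. There was 1 library per line and treatment, so values within a line carry no replicate check, and each line stands for 1 tumour. Pairs of values below give vehicle first and treated after it. No genetic change to either line is labelled. Levels are FPKM, reads scaled by gene length and library size, which can be compared between genes.

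SREBPs are made as membrane proteins of the endoplasmic reticulum. SCAP escorts them to the Golgi for cleavage when sterol is low, and INSIG proteins hold SCAP back when sterol is high. The released factors are known to bind promoters together with NF-Y and Sp1. SREBF2 mainly drives cholesterol synthesis and SREBF1 mainly fatty acid synthesis, and INSIG1 is itself a target, which closes a feedback loop. Many tumour cells depend on this pathway for membrane growth.

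The promoters of 6 of the genes are shown for the place of these genes in the results below. PMVK and TM7SF2 were lower after treatment in both lines, and SC5D was the member furthest above vehicle in HGC27. The paralogs INSIG1 and INSIG2 went different ways in MKN45, and SREBF2 encodes the factor. Whether these sequences bear on the levels was not tested. Each run is the 180 bases before the RefSeq transcription start in GRCh38.p14, on the gene's strand, 5′ to 3′. They lie at chr1:154936720-154936899 (minus strand), chr11:65111692-65111871, chr11:121292591-121292770, chr7:155297698-155297877, chr2:118088291-118088470 and chr22:41832925-41833104 (all plus strand). Capitals mark the SREBP element TCACNCCAC, the E-box CACGTG and the NF-Y box CCAAT, searched on both strands.
PMVK: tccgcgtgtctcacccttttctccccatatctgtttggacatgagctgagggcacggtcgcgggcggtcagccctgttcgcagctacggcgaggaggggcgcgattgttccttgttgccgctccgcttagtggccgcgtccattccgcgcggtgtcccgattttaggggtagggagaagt
TM7SF2: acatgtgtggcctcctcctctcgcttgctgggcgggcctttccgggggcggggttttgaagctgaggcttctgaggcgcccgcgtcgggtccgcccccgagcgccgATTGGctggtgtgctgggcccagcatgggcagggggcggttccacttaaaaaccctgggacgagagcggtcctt
SC5D: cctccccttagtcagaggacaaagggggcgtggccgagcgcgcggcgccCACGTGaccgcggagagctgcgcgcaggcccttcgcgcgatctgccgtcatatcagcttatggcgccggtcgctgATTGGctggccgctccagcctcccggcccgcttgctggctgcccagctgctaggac
INSIG1: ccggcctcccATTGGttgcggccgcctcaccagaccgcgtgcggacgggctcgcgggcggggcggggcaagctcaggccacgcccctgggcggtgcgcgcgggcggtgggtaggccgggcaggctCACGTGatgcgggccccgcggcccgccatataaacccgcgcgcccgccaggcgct
INSIG2: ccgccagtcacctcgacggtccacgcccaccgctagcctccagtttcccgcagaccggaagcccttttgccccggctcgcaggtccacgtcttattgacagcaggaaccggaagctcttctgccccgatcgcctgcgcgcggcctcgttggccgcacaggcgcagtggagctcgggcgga
SREBF2: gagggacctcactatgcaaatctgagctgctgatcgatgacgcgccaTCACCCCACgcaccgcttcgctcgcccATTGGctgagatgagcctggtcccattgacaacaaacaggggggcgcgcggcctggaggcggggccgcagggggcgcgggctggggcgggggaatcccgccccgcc
In these runs SREBF2 held an SREBP element 133 bases and an NF-Y box 106 bases before the start. SC5D held an E-box at 131 and an NF-Y box at 56 bases, INSIG1 an NF-Y box at 170 and an E-box at 55 bases, and TM7SF2 an NF-Y box at 74 bases. PMVK and INSIG2 held none of these letters, which says nothing about binding elsewhere.

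RefSeq gave a promoter window, 250 bases before to 50 after the start, for 29 of the 32 genes (where several starts were listed, the first was used). An NF-Y box lay in 18 of the 29 windows (62.1%), against 35.7% of all 27305 promoters and 37.2% of 9098 promoters of other tested genes. The GC box GGGCGG lay in 27 (93.1%), against 44.6% and 71.5%. The E-box lay in 4 (13.8%, against 7.43% and 10.4%) and the strict SREBP element in SREBF2 alone of the 29 (3.45%, against 1.15% and 1.01%). These are letter matches, not sites, and some windows share both an NF-Y and a GC box. The promoters of genes that were higher and of genes that were lower after treatment both held NF-Y boxes, as TM7SF2 and SC5D show.

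The libraries held between 24822519 and 36321194 reads recovered from the deposited values. Of 7 gastric epithelial markers, all were above 127 FPKM in vehicle MKN45 and all were under 0.21 FPKM in both HGC27 libraries, where 4 of 5 mesenchymal markers, VIM, COL3A1, ZEB1 and SPARC, stood at 16.6 FPKM or more. HGC27 therefore lacks the epithelial markers of its labelled tissue in these data. Immune, endothelial, adipocyte and hepatocyte markers were at or near 0, with CD68 in MKN45 the highest at 1.07 and 2.46 FPKM. A level is relative to a library size and is not an amount per cell. Fewer cells of a type and less RNA per cell therefore cannot be told apart.

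Few of the 32 genes passed the test. Fitted over both lines with line as a block, 1 of the 30 tested fell and none rose (limma, Benjamini-Hochberg adjusted p under 0.05 over all genes), where 6.61% of all 12353 genes tested were called, 3.43% upward and 3.17% downward. A share of 1 in 30 is not above that background. At an unadjusted p under 0.05 there were 6 of the 30, below the 28.4% of all genes. MVK and FADS2, with a mean under 1 FPKM, were not tested. The fitted value was downward for 19 of the 30 and upward for 11, with a median of -0.21 on the log2(FPKM + 1) scale, while the median of all tested genes was 0.06. Of all tested genes, 46.0% were fitted downward.

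**Figure D1:**
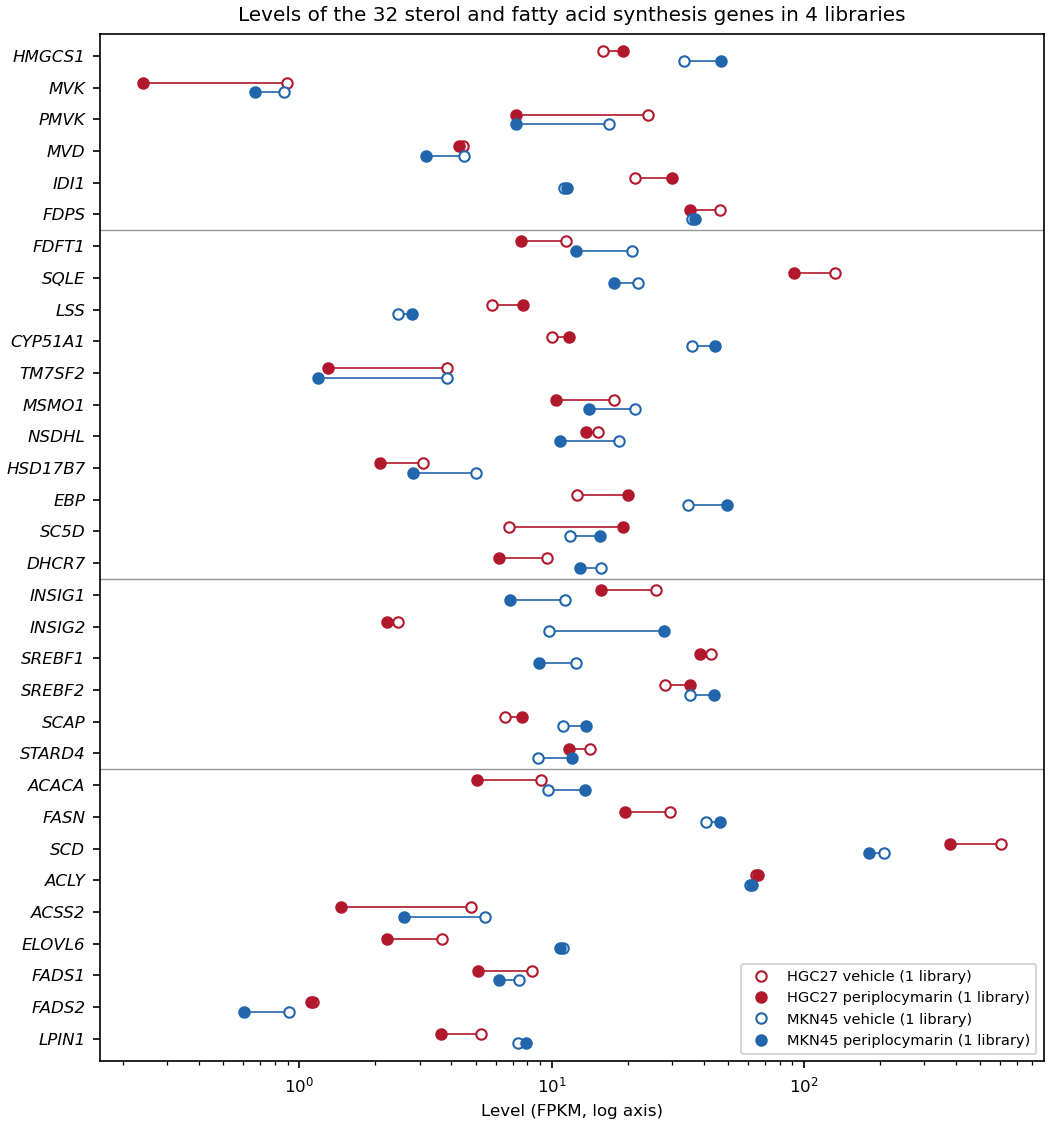
Level of each of the 32 genes in FPKM on a log axis, with 1 point per library: open circles are vehicle, filled circles periplocymarin, red HGC27 and blue MKN45, and grey lines separate the mevalonate, squalene to cholesterol, regulator and fatty acid groups. PMVK, TM7SF2 and ACSS2 shift to the left in both lines, SC5D to the right most in HGC27 and INSIG2 to the right in MKN45 only.

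The gene that fell was PMVK, the phosphomevalonate kinase of the mevalonate pathway (ENSG00000163344, chromosome 1 from 154924734 to 154936991, minus strand, GRCh38 in GENCODE 29, no other gene model overlapping it). PMVK stood at 24.0 FPKM in vehicle and 7.25 FPKM in treated HGC27, and at 16.8 and 7.24 FPKM in MKN45. Both treated libraries lay below both vehicle libraries. The fitted difference was -1.36 ± 0.29 (moderated SE, 2 lines, limma adjusted p = 0.0321), lower in 2 of 2 lines. It did not pass with limma-voom on recovered reads (-1.48 ± 0.48, adjusted p = 0.0534), without the line block (adjusted p = 0.828) or with no low-value filter (adjusted p = 0.346), settings in which the number of all genes called was 1645, 0 and 0.

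None of the other tested enzymes of the mevalonate and prenyl steps passed. HMGCS1, which makes HMG-CoA, went from 16.0 to 19.2 FPKM (HGC27) and from 33.4 to 46.9 FPKM (MKN45), with a fitted difference of 0.36 ± 0.28 that did not pass (limma adjusted p = 0.413). IDI1, the isopentenyl diphosphate isomerase, went from 21.4 to 29.96 FPKM in HGC27 and stood at 11.2 and 11.5 FPKM in MKN45. FDPS, the farnesyl diphosphate synthase, stood at 46.5 and 35.3 FPKM (HGC27) and 36.0 and 37.1 FPKM (MKN45). MVD, the diphosphomevalonate decarboxylase that acts after PMVK, stood at 4.47 and 4.29 FPKM (HGC27) and 4.48 and 3.18 FPKM (MKN45). Of the 5 tested in these steps, PMVK alone lay past 2-fold in either line. Mevalonate kinase (MVK) was low throughout, at 0.890 and 0.240 FPKM (HGC27, 259 and 51 reads) and 0.872 and 0.670 FPKM (MKN45, 290 and 144 reads), lower after treatment in both lines and without a test.

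From squalene to cholesterol, none of the 11 enzymes passed the test (3 at an unadjusted p under 0.05 with limma, near the 28.4% of all genes, and 0 called with limma-voom, which called 7.89% of 12060 genes upward and 5.75% downward). On the deposited scale all 11 had the same sign in both lines, 7 downward and 4 upward. The same held for 24 of 30 over the whole group and 72.9% of 10071 genes measured in both lines. With libraries scaled to their totals alone, LSS (0.059 in HGC27 and -0.031 in MKN45) and CYP51A1 (-0.113 and 0.080) had opposite signs. They did so too with values rescaled to a common sum without mitochondrially encoded genes. TM7SF2, a sterol reductase of the nuclear envelope and endoplasmic reticulum, was lowest relative to vehicle. It stood at 3.85 FPKM in vehicle and 1.30 FPKM in treated HGC27, and at 3.85 and 1.18 FPKM in MKN45. Both treated libraries were below both vehicle libraries and the vehicle levels were nearly equal, yet the fitted difference of -1.11 ± 0.30 did not pass (limma adjusted p = 0.0546). It passed with a pseudocount of 0.1 FPKM (-1.56, limma adjusted p = 0.0376) and with libraries scaled to their totals alone (-1.31, limma adjusted p = 0.0204). It did not pass with quantile normalization (-0.87, limma adjusted p = 0.118) or limma-voom (-1.63, adjusted p = 0.0597). TM7SF2 (chromosome 11, 65111845 to 65116384, plus strand) shares 16 exonic bases with VPS51. The lamin B receptor LBR, which catalyses the same reduction, was on a list of other sterol enzymes and had higher treated values, from 18.5 to 50.2 FPKM (HGC27) and from 26.2 to 38.7 FPKM (MKN45), with a fitted difference of 0.97 ± 0.31 that did not pass (limma adjusted p = 0.0794).

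SC5D, the sterol desaturase near the end of the pathway, was the only member at least 2-fold higher in HGC27, a difference of at least 1 in log2(FPKM + 1). It went from 6.75 to 19.1 FPKM (HGC27, 2190 and 4524 reads) and from 11.8 to 15.5 FPKM (MKN45). Both treated libraries were above both vehicle libraries. Its differences were 1.37 and 0.36 on the log2(FPKM + 1) scale, and the fitted 0.87 ± 0.32 did not pass (limma adjusted p = 0.118). At a floor of 10 FPKM it did (limma adjusted p = 0.0281), a setting that called 1055 genes upward and 199 downward among 4453. EBP, the sterol isomerase acting just before SC5D, went from 12.6 to 20.1 FPKM (HGC27) and from 34.6 to 49.5 FPKM (MKN45), with a fitted difference of 0.57 ± 0.27 that did not pass (limma adjusted p = 0.205).

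The other squalene and sterol enzymes differed by less than 2-fold in both lines. FDFT1, squalene synthase, stood at 11.4 and 7.56 FPKM (HGC27) and 20.7 and 12.5 FPKM (MKN45). MSMO1, a methyl sterol oxidase, stood at 17.6 and 10.4 FPKM (HGC27) and 21.4 and 14.1 FPKM (MKN45). Both were lower in each treated library by about the same amount in the 2 lines, with fitted differences of -0.61 ± 0.28 and -0.64 ± 0.28 (limma adjusted p = 0.186 and 0.167). SQLE, squalene epoxidase, stood at 133 and 91.3 FPKM (HGC27) and 22.0 and 17.7 FPKM (MKN45). NSDHL, HSD17B7 and DHCR7 were lower in both lines, with ratios of treated to vehicle FPKM between 0.562 (HSD17B7 in MKN45) and 0.899 (NSDHL in HGC27). LSS and CYP51A1 were higher in both, with ratios between 1.14 (LSS in MKN45) and 1.34 (LSS in HGC27). CYP51A1 shares 2844 exonic bases with a second gene model on the same strand, so its level is uncertain. HMGCS1, IDI1, FDPS, FDFT1, LSS, MVK, SREBF1, SREBF2, STARD4, ACLY and LPIN1 share between 115 and 703 exonic bases with other gene models on the opposite strand, and HSD17B7 and FDPS have pseudogene copies, so their levels carry that uncertainty too.

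**Figure D2:**
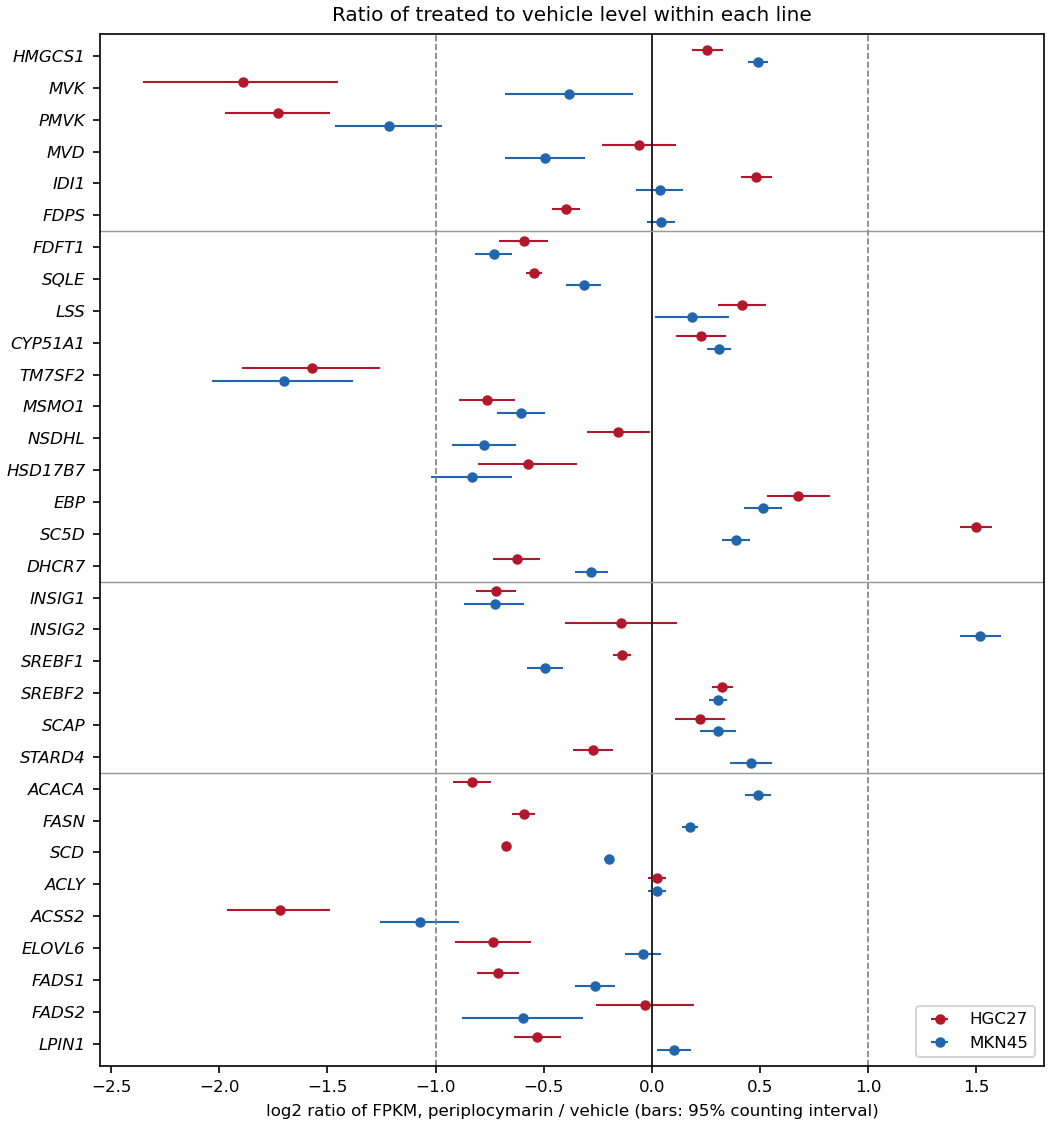
Ratio of treated to vehicle FPKM for each gene, as log2, in HGC27 (red) and MKN45 (blue), from 1 library per point, with bars giving 95% Clopper-Pearson counting intervals that do not cover differences between cultures and dashed lines at 2-fold. Intervals are narrow beside the spread among genes, and for ACACA, FASN, STARD4 and LPIN1 the intervals of the 2 lines lie on opposite sides of 0.

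The regulators SREBF2, SREBF1 and SCAP did not pass the test. SREBF2 stood at 28.1 and 35.3 FPKM (HGC27) and 35.5 and 43.9 FPKM (MKN45), and its fitted 0.31 ± 0.27 (limma adjusted p = 0.481) turned to -0.13 with quantile normalization. SREBF1 stood at 42.7 and 38.8 FPKM (HGC27) and 12.5 and 8.89 FPKM (MKN45, fitted -0.29 ± 0.28, limma adjusted p = 0.518). SCAP stood at 6.56 and 7.66 FPKM (HGC27) and 11.1 and 13.7 FPKM (MKN45), and its fitted 0.24 ± 0.28 (limma adjusted p = 0.602) turned to -0.020 with library totals alone. For these 3 the treated and vehicle values of a line differed by less than 1.5-fold. The table counts whole genes, so it cannot separate the SREBF1 isoforms or show how much SREBP was cleaved.

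The INSIG paralogs, which hold SCAP in the endoplasmic reticulum, lay on opposite sides of vehicle in MKN45. INSIG1 stood at 25.8 and 15.7 FPKM (HGC27) and 11.3 and 6.82 FPKM (MKN45), so its treated to vehicle ratio was 0.607 and 0.604 in the 2 lines. Its fitted -0.67 ± 0.28 did not pass (limma adjusted p = 0.152), and it passed with library totals alone (-0.94, limma adjusted p = 0.0466). With quantile normalization it did not pass (-0.96, limma adjusted p = 0.0742). INSIG2 stood at 2.46 and 2.23 FPKM (HGC27) and 9.74 and 27.95 FPKM (MKN45, 1418 and 2632 reads). It was the only member at least 2-fold higher in MKN45, with a difference of 1.43, against -0.10 in HGC27, and the fitted 0.67 ± 0.38 did not pass (limma adjusted p = 0.271). The difference in response between lines, -1.53 for HGC27 minus MKN45, is the largest among the 30 genes measured in both and cannot be tested with 4 libraries. INSIG2 lies on chromosome 2 from 118088452 to 118110997, plus strand, with no overlapping gene model. STARD4, a sterol carrier, stood at 14.2 and 11.7 FPKM (HGC27) and 8.79 and 12.1 FPKM (MKN45).

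Fatty acid and lipid enzymes were mostly lower in treated HGC27 and, on the deposited scale, evenly divided in MKN45. In HGC27, 8 of 9 genes were lower in the treated library, with a median difference of -0.57, and in MKN45 4 of 8 measured were lower and 4 higher, with a median of -0.00725. Of all measured genes, 5273 of 11821 were lower in treated HGC27 and 5531 of 11895 in treated MKN45. The MKN45 split depends on the scaling: with quantile normalization, library totals alone or a common sum without mitochondrially encoded genes, 7 of the 8 were lower and only ACACA higher. ACACA, which makes malonyl-CoA, went from 9.04 to 5.08 FPKM (HGC27) and from 9.64 to 13.6 FPKM (MKN45). The vehicle levels were close and the treated levels lay on opposite sides of them. FASN, fatty acid synthase, went from 29.5 to 19.6 FPKM (HGC27) and from 40.9 to 46.3 FPKM (MKN45). SCD, the stearoyl-CoA desaturase and the most abundant of the 32, stood at 603 and 378 FPKM (HGC27) and 208 and 181 FPKM (MKN45). ELOVL6, a fatty acid elongase, stood at 3.69 and 2.22 FPKM (HGC27) and 11.1 and 10.8 FPKM (MKN45). None of the 8 tested in this branch passed over both lines with limma (1 at an unadjusted p under 0.05, against 28.4% of all genes, and 0 called with limma-voom), and whether the lines differ could not be tested.

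Acetyl-CoA, the building block of both pathways, is supplied by ACLY and ACSS2. ACLY, which cleaves citrate, stood at 64.4 and 65.5 FPKM (HGC27) and 61.4 and 62.4 FPKM (MKN45), a ratio of 1.02 in each line. ACSS2, which activates acetate, stood at 4.80 and 1.46 FPKM (HGC27, 813 and 180 reads) and 5.44 and 2.59 FPKM (MKN45, 1053 and 324 reads). Both treated libraries were below both vehicle libraries, by 1.24 and 0.84 on the log2(FPKM + 1) scale, and the fitted -1.04 ± 0.30 did not pass (limma adjusted p = 0.0638). It passed with library totals alone (-1.26, limma adjusted p = 0.0218) and with a pseudocount of 0.1 FPKM (-1.35, limma adjusted p = 0.0489). It did not pass with quantile normalization (-0.90, limma adjusted p = 0.101) or limma-voom (-1.36, adjusted p = 0.0539). ACSS2 lies on chromosome 20 from 34872146 to 34927962, plus strand. FADS1, a desaturase of polyunsaturated fatty acids, stood at 8.33 and 5.09 FPKM (HGC27) and 7.41 and 6.18 FPKM (MKN45), and FADS2 stayed between 0.604 and 1.13 FPKM. The FADS1 and FADS2 models share 490 exonic bases on opposite strands and no strand setting is stated. LPIN1, a phosphatidate phosphatase, stood at 5.25 and 3.64 FPKM (HGC27) and 7.37 and 7.92 FPKM (MKN45).

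Within HGC27, 1 of 31 measured members (SC5D) was at least 2-fold higher and 3 (PMVK, TM7SF2 and ACSS2) at least 2-fold lower, where 20.1% of 11821 genes were past 2-fold, 9.72% higher and 10.4% lower. Within MKN45, 1 of 30 (INSIG2) was higher and 2 (PMVK and TM7SF2) lower, where 17.2% of 11895 genes were past 2-fold, 8.21% higher and 8.94% lower. In both lines the count of members past 2-fold was therefore below the background share on the deposited scale. The HGC27 count depends on the scaling. It was 8 of 31 with quantile normalization and with library totals alone, where 15.9% and 21.1% of all genes were past 2-fold, and 11 of 32 with values rescaled to a common sum without mitochondrially encoded genes, where 35.7% were. The median member difference was -0.39 in HGC27 and -0.00725 in MKN45, where all measured genes had medians of 0.11 and 0.07.

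Up to 100 FPKM, genes of higher level tended to be higher after treatment in these values, and most members lay below the median at their level. In HGC27 the median of all genes was 0.41 at 10 to 30 FPKM and 0.64 at 30 to 100 FPKM, while the 11 and 4 members at those levels had medians of -0.14 and -0.055. In MKN45 the corresponding medians were 0.32 and 0.44 for all genes and -0.15 and 0.30 for 14 and 7 members. Above 100 FPKM the median of all genes was lower again, at 0.52 in HGC27 and 0.22 in MKN45. Of the members, 24 of 31 in HGC27 and 22 of 30 in MKN45 lay below the median of all genes in their own level bin. The median of member minus bin median was -0.59 and -0.38. These are descriptions of 1 library pair each, with no test.

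**Figure D3:**
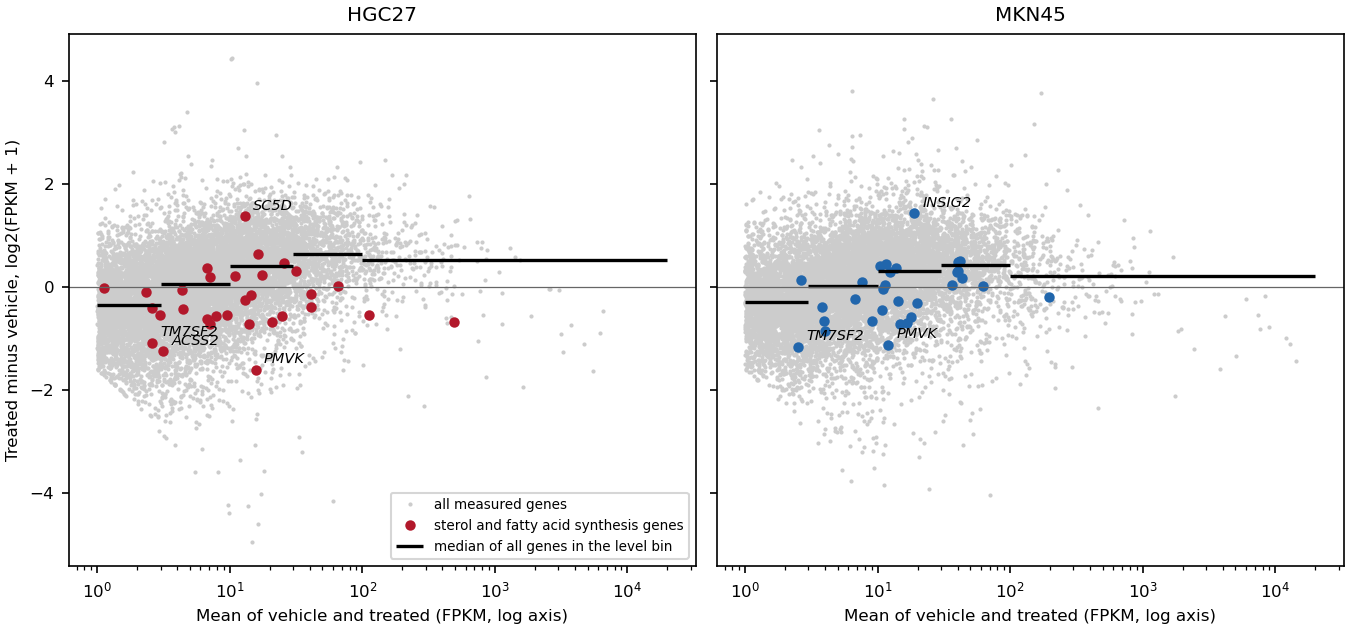
Treated minus vehicle difference in log2(FPKM + 1) against mean level (log axis) in HGC27 and MKN45, with grey points for all genes averaging 1 FPKM or more, coloured points for the sterol and fatty acid synthesis genes, and black lines for the median of all genes in 5 level bins. Most coloured points lie below the black line at their level, and the genes past 2-fold are named.

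How the libraries are scaled moves the direction of the mildly higher members. Of the 9 members higher in HGC27, 4 (IDI1, LSS, EBP and SC5D) were higher under all 5 scalings tried, and of the 22 lower ones 19 stayed lower. In MKN45, 7 of 15 higher members (HMGCS1, EBP, SC5D, INSIG2, SCAP, STARD4 and ACACA) and 14 of 15 lower members kept their sign. Scaling to library totals alone moved the median of all genes by -0.31 in HGC27 and -0.19 in MKN45. Under that scaling 4 of 30 tested members were called over both lines, PMVK, TM7SF2, ACSS2 and INSIG1, all downward. Among all 12446 genes tested there were 337 rises and 1091 falls (424 and 392 among 12353 on the deposited scale).

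Other genes of sterol and lipid handling were read from the same fit, from 5 lists. Of 12 genes that process or degrade SREBPs and their regulators, none passed in either direction with limma on FPKM (4 at an unadjusted p under 0.05, where all genes gave 28.4%). With limma-voom 3 of the 12 were called upward, RNF139 and TRIB1 among them, where all genes gave 7.89%. RNF139, a ubiquitin ligase of the endoplasmic reticulum, went from 120 to 249 FPKM (HGC27) and from 7.13 to 12.5 FPKM (MKN45), with a fitted difference of 0.89 ± 0.28 that did not pass (limma adjusted p = 0.0753). The proteases MBTPS1 and MBTPS2, which cleave SREBPs, had fitted differences of -0.083 and -0.57.

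Of 14 tested genes of sterol storage, transport and export, 1 fell and none rose, where all genes gave 3.17% downward and 3.43% upward. At an unadjusted p under 0.05 with limma there were 4 of the 14, against 28.4% of all genes. The 1 that fell was NR1H3, which encodes the oxysterol receptor LXR alpha, known to activate SREBF1. NR1H3 stood at 4.52 and 1.13 FPKM (HGC27) and 3.44 and 0.388 FPKM (MKN45), with both treated libraries below both vehicle libraries (fitted -1.52 ± 0.31, limma adjusted p = 0.0286). It did not pass without the line block or the low-value filter. The receptor's target ABCA1, a cholesterol exporter, stood at 35.9 and 42.7 FPKM (HGC27) and 0.529 and 0.281 FPKM (MKN45). GRAMD1A, a sterol transfer protein, had a fitted difference of -1.10 ± 0.29 and did not pass (limma adjusted p = 0.0519), and it was called downward with limma-voom. That setting also called NR1H3 downward and NCEH1, a cholesteryl ester hydrolase, upward, where all genes gave 5.75% downward and 7.89% upward. NCEH1 stood at 1.97 and 1.55 FPKM (HGC27) and 35.3 and 147 FPKM (MKN45).

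Of 24 tested genes of other fatty acid and glycerolipid synthesis, 2 rose and none fell, where all genes gave 3.43% upward and 3.17% downward. At an unadjusted p under 0.05 with limma there were 7 of the 24, against 28.4% of all genes. The 2 that rose encode dehydratases of the very-long-chain elongation cycle. HACD3 went from 17.0 to 45.0 FPKM (HGC27) and from 20.9 to 48.3 FPKM (MKN45), with a fitted difference of 1.26 ± 0.27 (limma adjusted p = 0.0331). HACD2 went from 17.1 to 40.1 FPKM and from 22.6 to 52.4 FPKM (fitted 1.18 ± 0.27, limma adjusted p = 0.0383). In each case both treated libraries lay above both vehicle libraries. With quantile normalization neither passed (0.87 and 0.78, limma adjusted p = 0.0828 and 0.103), nor without the line block or the low-value filter. Of 11 tested prenyl and sterol enzymes outside the 32 genes none passed with limma on FPKM (3 at an unadjusted p under 0.05, near the 28.4% of all genes; LBR and NUS1 were called upward with limma-voom, where all genes gave 7.89%), with 10 fitted upward and 1 downward, the prenyl synthase GGPS1 (-0.98 ± 0.29, limma adjusted p = 0.0671). NUS1, a subunit of the dolichol synthase, had the highest of these (0.998 ± 0.28, limma adjusted p = 0.0590). Among all 12353 genes tested, 6667 were fitted upward. Of 15 fatty acid oxidation genes none passed with limma on FPKM (2 at an unadjusted p under 0.05, against 28.4% of all genes; CPT2 was called downward with limma-voom, where all genes gave 5.75%), with a median fitted difference of -0.10.

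**Figure D4:**
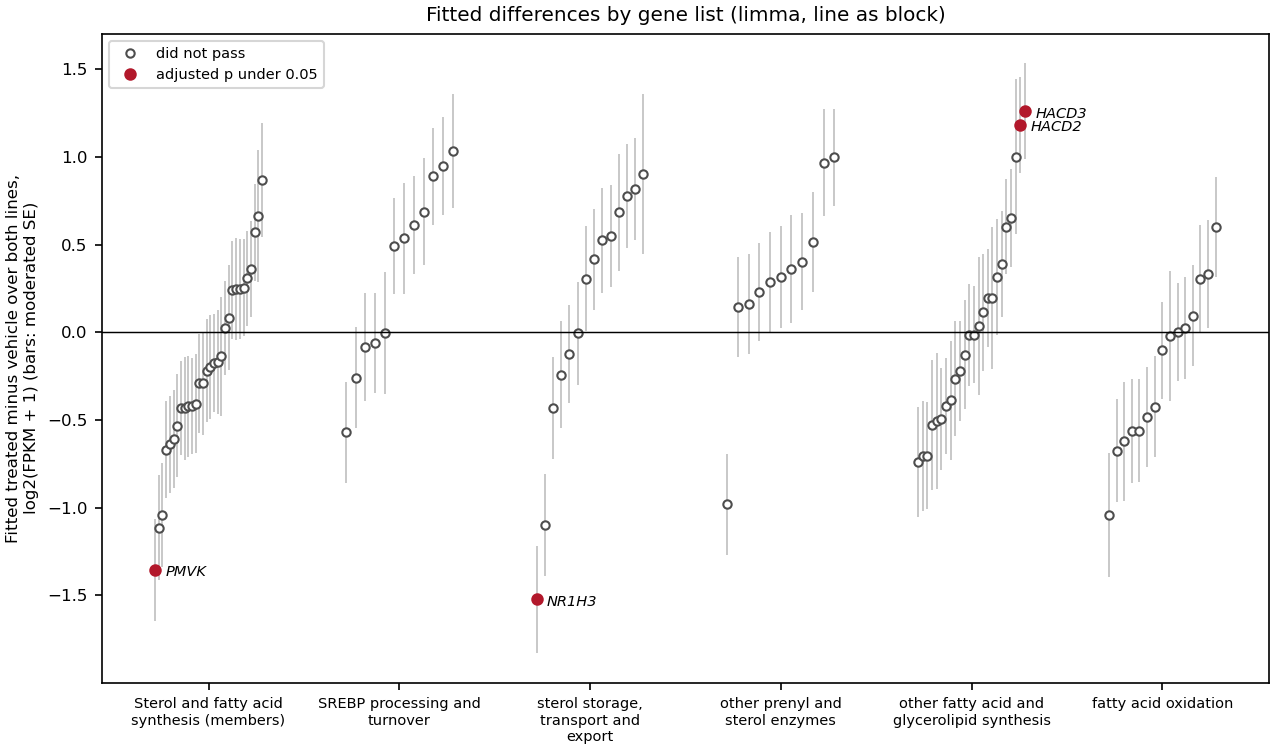
Fitted treated minus vehicle difference over both lines in log2(FPKM + 1) for each tested gene of 6 lists, sorted within a list, with bars for the moderated SE and filled red points for genes at an adjusted p under 0.05. PMVK and NR1H3 fell, HACD2 and HACD3 rose, and the remaining points did not pass.

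Between the vehicle libraries the members differed no more often than other genes did. Of 31 measured members, 9 differed by at least 2-fold between the lines, 4 higher in HGC27 and 5 higher in MKN45, where 31.6% of 13031 genes did, 14.3% higher in HGC27 and 17.4% lower. Higher in HGC27 were SQLE (133 against 22.0 FPKM), SREBF1 (42.7 against 12.5 FPKM), SCD (603 against 208 FPKM) and INSIG1 (25.8 against 11.3 FPKM). Higher in MKN45 were CYP51A1 (35.9 against 10.0 FPKM), INSIG2 (9.74 against 2.46 FPKM), EBP (34.6 against 12.6 FPKM), ELOVL6 (11.1 against 3.69 FPKM) and HMGCS1 (33.4 against 16.0 FPKM). The summed level of the 32 genes was 1191 FPKM in vehicle and 880.2 FPKM in treated HGC27, and 736 FPKM in both MKN45 libraries, with SCD making up more than any other member. In the treated libraries SREBF1, SQLE, SCD and INSIG1 were also higher in HGC27 than in MKN45. The vehicle libraries were compared as values, without a test.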

How the data were processed

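Poly(A) RNA libraries, 1 for each of 4 groups named by the sample titles, were analysed from 1 table. Per the submitters' processing notes, fastp 2.0, HISAT2 2.1.0 and hg38 were used; the gene counter, annotation and strand setting: not given in the sources used here. The unit is inferred, as the header is silent: the authors deposited values that behave as FPKM, because a value times GENCODE 29 gene length is a whole multiple of 1 step per library for 15204 of 30457 genes above 0 (tolerance 0.0001 reads). Other lengths were searched, taking the whole-read length nearest to GENCODE 29, and 20299 of 20299 genes above 0 in at least 3 libraries came out whole. A free length fits more easily than a known one. The deposited values imply library sizes of 1.21, 0.949, 1.01 and 0.866 times the recovered reads (vehicle and treated HGC27, then MKN45).

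Symbols came from a table matching 62639 of 62710 IDs. limma 3.58.1 (R 4.3.3, eBayes with trend) was fitted to log2(FPKM + 1) with line as a block, for genes averaging 1 FPKM and 10 reads or more. The same line links each pair, so the pairing is in the design. The SE draws on 8.53 prior against 1 residual degree of freedom. p-values rest on the spread between 2 lines, mostly as pooled over all genes of like level, and not on replicate cultures. Within a line, genes averaging 1 FPKM or more were called past 2-fold at a difference of 1, without a test. Counting intervals (Clopper-Pearson, 95%) had a median half-width of 0.11 (HGC27) and 0.085 (MKN45) on the log2 scale over members, and cover counting error only. The fit was also run on simulated data in which a changed gene had the same fold change in both lines. That setting differs from these data, so the simulation does not bear on the calls here. limma-voom used the recovered reads with the library sizes that the deposited values imply.

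The members, lists and named genes (each member past the test or 2-fold in a line, and 5 regulators) were chosen with earlier results of these data known. Members outside that rule are given for their place in the pathway. Alternatives were rescaling to a common sum with and without mitochondrially encoded genes, quantile normalization, other filters, a pseudocount of 0.1, no block and limma-voom. Library totals alone was chosen after seeing the data. The values of 1 gene on the list of SREBP processing and turnover are not reported here.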

Additional observations from a re-analysis of the deposited data

Results flagged for a closer look

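In 4 genes the treated library was lower than vehicle in HGC27 and higher in MKN45, with both 95% counting intervals of the ratio clear of 0 on the log2 scale. Counting opposite directions in either order, these 4 of the 30 members measured in both lines met the rule, against 15.9% of 10071 genes. The share of all genes in this order alone was not counted. The difference between lines was not tested. The HGC27 minus MKN45 gap in response was -1.18 for ACACA (-0.72 and 0.45), -0.74 for FASN (-0.57 and 0.17), -0.67 for STARD4 (-0.25 and 0.42) and -0.52 for LPIN1 (-0.43 and 0.092). The higher value in MKN45 kept its sign under all 5 scalings for ACACA and STARD4 and not for FASN and LPIN1. ACACA, FASN and LPIN1 are enzymes of fatty acid and lipid synthesis, and STARD4 is a sterol carrier.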

How the results depend on the processing

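Among the 32 genes, 1 of 30 tested was called over both lines on the deposited scale and with quantile normalization or no read minimum. The count was 2 of 32 with values rescaled to a common sum and 5 of 32 with mitochondrially encoded genes left out of that rescaling. Library totals alone gave 4 of 30. A floor of 10 FPKM gave 2 of 20, and a pseudocount of 0.1 gave 3 of 30. The count was 0 of 32 with no low-value filter, and 0 of 30 with no line block (no replicate block) or limma-voom. PMVK was among the members called in each setting that called any. At an unadjusted p under 0.05 the last 3 settings gave 6, 2 and 6 members, where 13.3%, 5.63% and 31.4% of all genes passed. Among all genes, 816 of 12353 were called, against 502 of 12346 with quantile normalization, and 1702 of 15337 and 2121 of 15890 with the rescalings. There were 1428 of 12446 with library totals alone, 1254 of 4453 at the floor of 10 and 1480 of 12353 with the lower pseudocount. With limma-voom 1645 of 12060 were called, and 0 without the filter (32364 tested) or the block (12353 tested). SREBF2 turned to -0.13 with quantile normalization, and SCAP to -0.033 and -0.020 with the rescaling without mitochondrial genes and with library totals alone. The causes of these moves were not tested.

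Members past 2-fold in HGC27 numbered 4, and 8 with quantile normalization or library totals alone, 11 with the rescaling without mitochondrial genes and 2 at the floor of 10 (all genes 15.9%, 21.1%, 35.7% and 22.6%, against 20.1%). The median member difference in HGC27 was -0.39, and -0.57 with quantile normalization, -0.60 and -0.82 with the rescalings, -0.67 with library totals alone and -0.14 at the floor of 10, while the median of all genes was 0.11, and 0.05, -0.17, -0.42, -0.20 and 0.48 in the same order. In MKN45 it was -0.00725, and -0.29, -0.34 and -0.22 with quantile normalization, the rescaling without mitochondrial genes and library totals alone, and -0.10 with no filter, while all genes gave 0.07, and 0.04, -0.25, -0.12 and -0.05. Leaving out a line leaves 1 pair and no residual degree of freedom, so the within-line values stand in its place. Depth limits MVK most, with 51 reads in treated HGC27.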

Other observations

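The higher vehicle level of SQLE in HGC27 was shared by the genes beside it. Among 9 other measured protein-coding genes within 600 kb of SQLE in GENCODE 29, a window chosen after these values were seen, 8 were at least 2-fold higher in vehicle HGC27 than in vehicle MKN45, with a median difference of 3.06 in log2(FPKM + 1). The share over all genes was 14.3%. NSMCE2, a SUMO ligase, stood at 127 against 6.70 FPKM. RNF139, the ubiquitin ligase of the endoplasmic reticulum described above, stood at 120 against 7.13 FPKM. WASHC5, a subunit of the WASH complex, stood at 96.8 against 13.2 FPKM, and NDUFB9, a subunit of respiratory complex I, at 59.6 against 7.96 FPKM. TATDN1 stood at 73.3 against 7.94 FPKM. TRIB1 was the exception, at 17.7 against 15.8 FPKM. Around the other 31 genes the median of the neighbours ran from -0.998 (INSIG2, 2 neighbours) to 2.15 (NSDHL, 16 neighbours, 10 of them higher in HGC27). SREBF1, itself higher in HGC27 by 1.69, had a neighbour median of 0.066 over 17 genes.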
